A study of Mus musculus with 6 samples.

Results

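Pheta2, Soga1, Pdik1l and Lpar5 are 4 genes of the mouse genome whose library-scaled counts (CPM, counts scaled to library size) were lower in every library of endosteal leukemia cells than in every library of central marrow leukemia cells. They were chosen by that pattern in the same 6 libraries, so their levels in the 2 regions are given as a description, with no test. They are 4 of 1022 such genes among 13352 genes with enough counts to be tested, in a table of 54532 genes, and 4 of 4 passed the filter on low counts. The share of all tested genes with a lower CPM in every endosteal library was 7.65%, and the share with a higher CPM in every endosteal library was 7.47%.

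RNA-seq was done on leukemia cells of C57BL/6 mice with AML1-ETO9a (AE9a) leukemia. AML1-ETO9a is a splice form of the fusion of the transcription factor RUNX1 (AML1) with ETO, and it was carried into Kit-positive progenitor cells by a retrovirus. Both groups carried it, and all cells came from mice of the third round of transplantation. Central bone marrow (CBM, 3 libraries) was flushed from femurs and tibias, and endosteal bone marrow (EBM, 3 libraries) was released from the same bones by collagenase at 37 °C. Digestion was done for EBM only, so region and digestion cannot be told apart. The labels mention sorting of the cells but give no gate. The study used female mice bought at 6 to 8 weeks of age, and the age of the mice behind each library was not stated.

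The proteins of these genes work in different places of the cell. LPAR5 is a receptor of the cell surface for lysophosphatidic acid (LPA), a lipid signal, and passes it on through G proteins. PHETA2 is a small adaptor that binds the lipid phosphatase OCRL on endosomes and takes part in the return of cargo from endosomes to the Golgi. SOGA1 was named for suppression of glucose output through autophagy downstream of adiponectin in liver cells, and is also known as a protein that ties microtubules to the Golgi. PDIK1L is a protein kinase of the nucleus and cytoplasm closely related to STK35, a partner of the actin-associated protein PDLIM1.

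RefSeq promoter sequences, from 250 bases before to 50 bases after a transcript start on GRCm38.p6, were matched for 3 of the 4 genes, with 6 start sites. Soga1 was not among them. Since the leukemia is driven by a RUNX1 fusion, the promoters with the RUNX letters TGTGGT, read on either strand, are shown first, with those letters in capitals (ACCACA where they lie on the other strand). They were in 3 of the 6 starts, 2 of Lpar5 and 1 of Pheta2, and in 16.8% of all 32851 promoters.
Lpar5, chr6:125067670-125067969, + strand: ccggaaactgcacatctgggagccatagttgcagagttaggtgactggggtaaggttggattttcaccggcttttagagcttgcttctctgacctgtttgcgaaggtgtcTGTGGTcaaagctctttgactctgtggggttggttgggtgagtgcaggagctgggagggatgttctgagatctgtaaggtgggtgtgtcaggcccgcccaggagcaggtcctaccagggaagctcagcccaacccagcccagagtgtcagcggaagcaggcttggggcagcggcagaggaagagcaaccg
Lpar5, chr6:125071085-125071384, + strand: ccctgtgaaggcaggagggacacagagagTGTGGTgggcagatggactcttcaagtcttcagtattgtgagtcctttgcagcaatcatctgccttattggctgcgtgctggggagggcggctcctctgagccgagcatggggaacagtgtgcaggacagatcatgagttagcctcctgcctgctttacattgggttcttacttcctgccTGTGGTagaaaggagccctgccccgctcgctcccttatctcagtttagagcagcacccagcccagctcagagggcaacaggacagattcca
Pheta2, chr15:82340602-82340901, + strand: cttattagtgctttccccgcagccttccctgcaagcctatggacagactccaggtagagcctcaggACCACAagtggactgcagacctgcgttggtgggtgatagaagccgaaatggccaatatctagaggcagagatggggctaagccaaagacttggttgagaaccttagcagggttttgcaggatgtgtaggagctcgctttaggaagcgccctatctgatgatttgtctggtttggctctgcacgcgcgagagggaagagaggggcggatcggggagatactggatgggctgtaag
In the first of these the letters began 140 bases before a start site of Lpar5, in the second 221 and 41 bases before another, and in the third 184 bases before a start site of Pheta2. The start sites of Pheta2 used here, at 82340852 and 82341179, lie inside the gene, which begins at 82338942 in the count table. That outermost start had no window and was not examined. The study asked about the low-oxygen niche at the bone surface, so the starts with ACGTG on either strand, the core letters of hypoxia response elements, are shown next with those letters in capitals (CACGT on the other strand). ACGTG was in 2 of the 6 starts and in 19.6% of all promoters.
Pdik1l, chr4:134287797-134288096, − strand: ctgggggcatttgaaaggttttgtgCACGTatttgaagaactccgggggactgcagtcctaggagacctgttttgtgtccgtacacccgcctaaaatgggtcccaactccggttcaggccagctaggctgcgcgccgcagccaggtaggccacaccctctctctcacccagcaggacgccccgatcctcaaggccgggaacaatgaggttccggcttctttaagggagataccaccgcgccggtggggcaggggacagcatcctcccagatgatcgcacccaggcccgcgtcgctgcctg
Pheta2, chr15:82340929-82341228, + strand: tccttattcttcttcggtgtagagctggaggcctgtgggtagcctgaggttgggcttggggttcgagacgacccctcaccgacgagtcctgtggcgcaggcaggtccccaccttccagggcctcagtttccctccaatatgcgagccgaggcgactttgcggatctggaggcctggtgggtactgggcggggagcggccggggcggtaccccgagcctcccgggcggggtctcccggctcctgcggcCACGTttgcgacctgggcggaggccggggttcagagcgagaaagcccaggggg
The letters began 225 bases before the start site in Pdik1l and 3 bases before it in Pheta2. None of the 6 starts held CACGTG, the E-box read by MYC and its relatives, which 7.15% of all promoters held and which contains ACGTG. The GC box GGGCGG was in 5 of the 6 starts, against 35.7% of all promoters, and the last sequence holds it at 4 places. The 6 windows had a GC content of 54.3% to 77.7%, above the median of 52.7% over all promoters. They belong to only 3 genes, so the shares rest on few windows. CCAAT was in 4 of the 6 starts (37.4% of all promoters), AGATAA, the letters of GATA sites, in 1 start of Lpar5 (11.2%), and TATAAA in none (13.6%). These letter matches are a description of the windows and do not show binding.

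The libraries held 16436526 to 19462964 counts on genes, and a floor of 3 counts was between 0.154 and 0.183 CPM. CPM values below are scaled by TMM factors of edgeR, which were between 0.948 and 1.04. Kit, the receptor that marks the progenitors the leukemia was made from, was at 196 to 239 CPM and Myb at 268 to 352 CPM over the 6 libraries. The other immature myeloid markers were far lower and varied between libraries of a region, with Cd34 at 1.16 to 16.4 CPM, Mpo at 1.65 to 35.8 CPM and Elane at 0.512 to 14.7 CPM. Of the 8 genes of that list 7 were tested, 1 with a log2 fold change below 0 and 6 above, with a median of 1.15 (Mpo 1.67 ± 0.93 and Ctsg 1.56 ± 0.75, SE). None passed an unadjusted p of 0.05 in edgeR's test, none had CBM and EBM libraries apart, and their summed CPM was 543 to 566 in CBM and 555 to 601 in EBM. The first principal component did not follow the labels. CBM replicate 2 and EBM replicate 3 were at one end (scores 42.9 and 46.0), with Cpa3, a mast cell protease, at 3.74 and 5.21 CPM. CBM replicate 1 and EBM replicates 1 and 2 were at the other end (−38.5, −36.4 and −19.8), with Cpa3 at 224, 210 and 180 CPM, and CBM replicate 3 lay between (5.81, with 44.3 CPM). On the second component every CBM library (−22.8, −3.58 and −31.5 for replicates 1 to 3) lay below every EBM library (22.2, 20.85 and 14.8). Values without CBM replicate 2 and EBM replicate 3 are given with the genes below.

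Lpar5 had the largest fold difference of the 4 and the lowest counts. The CBM libraries had 146, 114 and 138 counts and the EBM libraries 41, 54 and 46, which is 8.31, 6.00 and 6.85 CPM in CBM and 2.26, 3.01 and 2.96 CPM in EBM. Every EBM library was below every CBM library, and the highest EBM value was 50.1% of the lowest CBM value. The CBM libraries averaged 7.05 ± 1.17 CPM and the EBM libraries 2.74 ± 0.415 CPM (SD, n = 3 each), so EBM stood at 38.9% of CBM. On the log2 scale EBM minus CBM was −1.36 ± 0.22 (SE), and −1.52 without CBM replicate 2 and EBM replicate 3. Counting alone gives a coefficient of variation of 8.68% in CBM and 14.6% in EBM at these counts, and the libraries varied by 16.6% and 15.1%. In bulk RNA fewer cells that express a gene and less of its RNA per cell cannot be told apart, here and for the genes that follow.

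Soga1 had the highest CPM of the 4. The CBM libraries were at 128.5, 116.7 and 142.6 CPM and the EBM libraries at 58.2, 62.1 and 81.0 CPM, from 1055 to 2875 counts per library. The groups did not overlap, although EBM replicate 3 stood above the other EBM libraries and reached 69.4% of the lowest CBM value. The means were 129.3 ± 13.0 CPM and 67.1 ± 12.2 CPM (SD, n = 3 each), which put EBM at 51.9% of CBM. The log2 difference was −0.95 ± 0.15 (SE), and −1.17 without CBM replicate 2 and EBM replicate 3. The libraries varied by 10.1% in CBM and 18.2% in EBM, where counting alone gives 2.02% and 2.96%.

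Pdik1l was at 20.0, 24.7 and 22.1 CPM in CBM and at 12.5, 13.0 and 11.4 CPM in EBM, from 177 to 469 counts. The 3 EBM libraries lay close together, and the highest was 65.2% of the lowest CBM library. The means of 22.2 ± 2.36 and 12.3 ± 0.842 CPM (SD, n = 3 each) left EBM at 55.3% of CBM. The log2 difference was −0.86 ± 0.14 (SE), and −0.72 without CBM replicate 2 and EBM replicate 3.

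Pheta2 had the smallest fold difference and the smallest spread. The CBM libraries were at 51.6, 53.3 and 51.9 CPM and the EBM libraries at 32.1, 32.5 and 33.5 CPM, from 521 to 1045 counts. The 3 libraries of each region were nearly level, and the regions were far apart by comparison. The means of 52.2 ± 0.95 and 32.7 ± 0.718 CPM (SD, n = 3 each) left EBM at 62.6% of CBM. The log2 difference was −0.68 ± 0.09 (SE), and also −0.68 without CBM replicate 2 and EBM replicate 3. The coefficient of variation between libraries was 1.82% in CBM and 2.20% in EBM, below the 3.18% and 4.22% that counting alone gives.

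**Figure D1:**
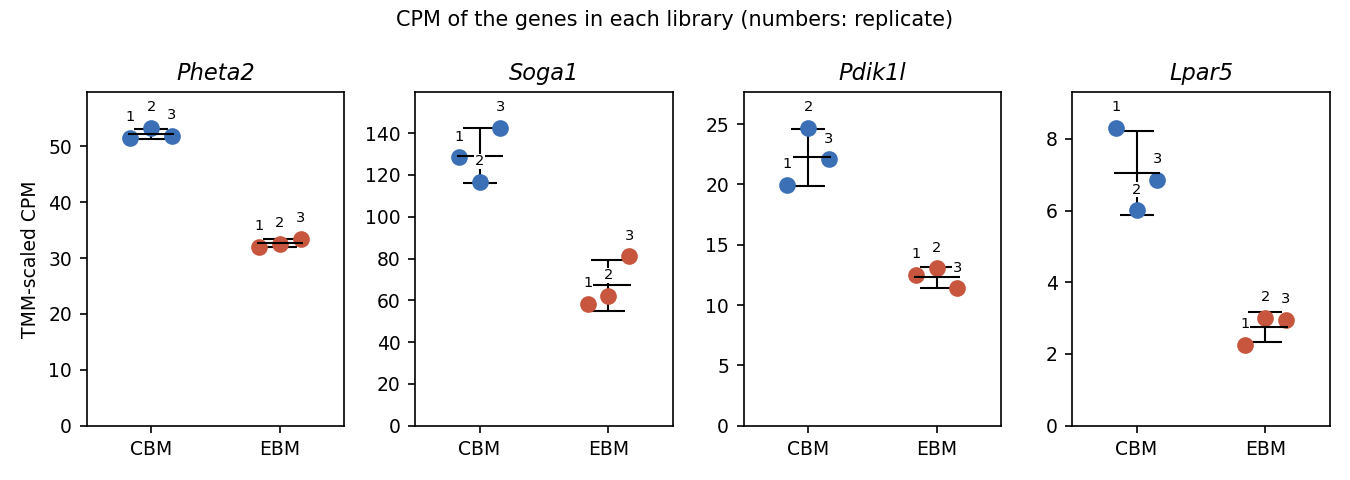
TMM-scaled CPM of Pheta2, Soga1, Pdik1l and Lpar5 (vertical axes, from 0) in the 3 CBM and 3 EBM libraries, with replicate numbers above the points, the mean as a horizontal line and the SD as error bars. In each panel the highest EBM point lies below the lowest CBM point, with the narrowest spread for Pheta2 (51.6 to 53.3 against 32.1 to 33.5 CPM).

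Other genes in the table had larger fold differences of the same pattern. Ranked by the log2 fold change among the 1022 genes with the same pattern, Lpar5 was at place 32, Soga1 at 117, Pdik1l at 159 and Pheta2 at 251. Of the 1022, 238 had a log2 fold change of −0.7 or lower, which is 1.78% of the genes tested. At the limit of the pattern, Tubgcp5 was just inside, with its lowest CBM and highest EBM library both at 41.027 CPM, and Ptgr2 just outside (33.345 against 33.347 CPM).

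The edgeR quasi-likelihood test called no gene at a Benjamini-Hochberg adjusted p of 0.05 (0% of 13352, smallest adjusted p 0.0583). At an unadjusted p of 0.05 the lower genes were 521 (3.90%) and the higher genes 535 (4.01%), and DESeq2 called 45 lower genes at an adjusted p of 0.05. The median log2 fold change over all genes was 0.00. The labels do not say that the libraries of a group came from separate mice, so p-values measure only the spread between these samples.

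**Figure D2:**
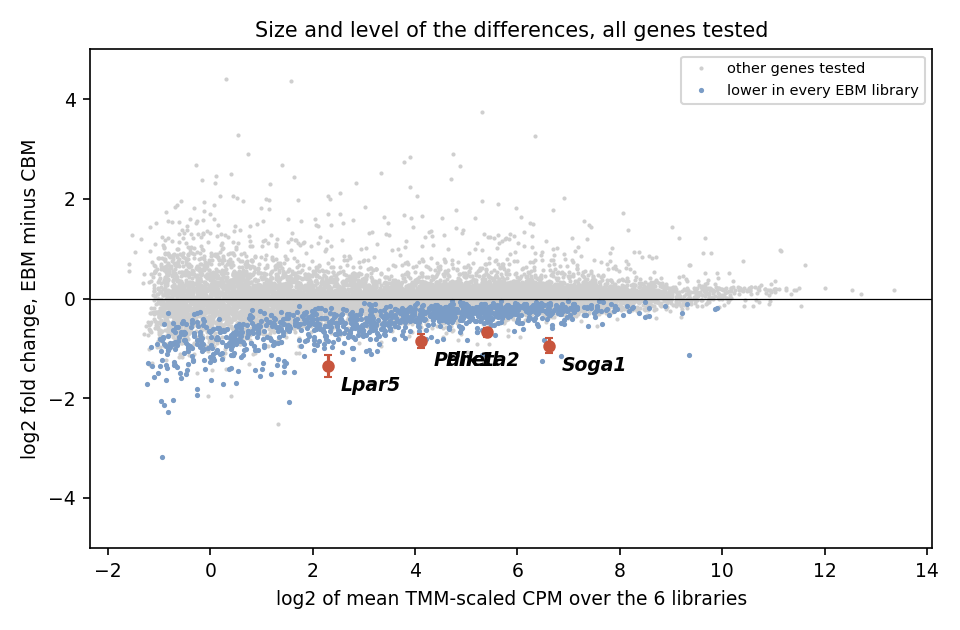
Log2 fold change of EBM minus CBM (vertical axis) against the log2 of the mean TMM-scaled CPM (horizontal axis) for the 13352 genes tested, with the 1022 genes that were lower in every EBM library in blue and the 4 genes in red, with standard errors as bars. The 4 lie among the blue points, from −1.36 for Lpar5 (place 32 of the 1022 by log2 fold change) to −0.68 for Pheta2 (place 251).

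Levels between genes were compared per kilobase of the gene length in the table. In CBM the length-scaled level was 16.2 ± 1.63 CPM per kilobase for Soga1, 15.8 ± 0.287 for Pheta2, 4.66 ± 0.770 for Lpar5 and 3.83 ± 0.407 for Pdik1l (SD, n = 3). In EBM it was 9.87 ± 0.217 for Pheta2, 8.41 ± 1.53 for Soga1, 2.12 ± 0.145 for Pdik1l and 1.81 ± 0.274 for Lpar5. Soga1 and Pheta2 formed an upper pair and Lpar5 and Pdik1l a lower pair in both regions, and within each pair the values of single libraries overlapped.

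The 4 genes had little in common in structure. In 1 coding transcript per gene of GENCODE M21, that with the longest coding sequence, Pheta2 and Lpar5 had 2 exons, Pdik1l 4 and Soga1 15, against a median of 9 over 10786 coding genes tested. The GC content of the transcript was 42.0% for Pdik1l and 60.3% for Soga1, at percentiles 9.77 and 95.7 of these genes, with a median of 50.6%. The 3′ untranslated region was 3374 bases in Pdik1l, 2554 in Soga1 and 1682 in Pheta2, against a median of 892. Lpar5 had 0 bases annotated after its stop codon.

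This last point bears on what was counted for Lpar5. The table places Lpar5 (ENSMUSG00000067714) at chr6:125067920-125082472 on the + strand of GRCm38, with a length of 1515 bases. RefSeq carries the gene 3657 bases further, and 2010008C14Rik (ENSMUSG00000107761), a short unconfirmed transcript at chr6:125083437-125084029, lies within that stretch on the same strand, 965 bases past the end of Lpar5 in the table. The CBM libraries had 36, 29 and 57 counts on it and the EBM libraries 22, 20 and 12, so it too was lower in every EBM library. The means were 2.13 ± 0.655 and 1.03 ± 0.232 CPM (SD, n = 3 each). Its log2 fold change was −1.04 ± 0.34 (SE), and it did not pass the threshold (edgeR adjusted p = 0.516, between 0.383 and 1 over 17 fits). Whether its reads come from Lpar5 transcripts was not tested. With both features summed, an alternative chosen after seeing the data, the log2 fold change of Lpar5 was −1.28.

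Pheta2 (ENSMUSG00000049687, chr15:82338942-82345743, + strand, 3311 bases) overlaps Smdt1, which encodes a subunit of the mitochondrial calcium uniporter, on the same strand. Of the exonic bases of Pheta2, 245 (7.40%) are shared with exons of Smdt1. The 5S rRNA copy n-R5s41 lies within Pheta2 but between its exons. The means of Smdt1 were 63.4 ± 5.74 and 73.3 ± 0.253 CPM (CBM and EBM, SD, n = 3 each), with a higher value in every EBM library. Its log2 fold change was 0.21 ± 0.10 (SE, edgeR adjusted p = 0.665), so it did not pass the threshold either. n-R5s41 had at most 3 counts in a library. How reads in the shared bases were assigned is not given in the sources used here. With the overlapping genes summed the log2 fold change was −0.13, against −0.68 for Pheta2 alone. That sum holds all counts of Smdt1, not only those in the shared bases. Smdt1 had more counts than Pheta2 in every library, so the sum is not a value of Pheta2.

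**Figure D3:**
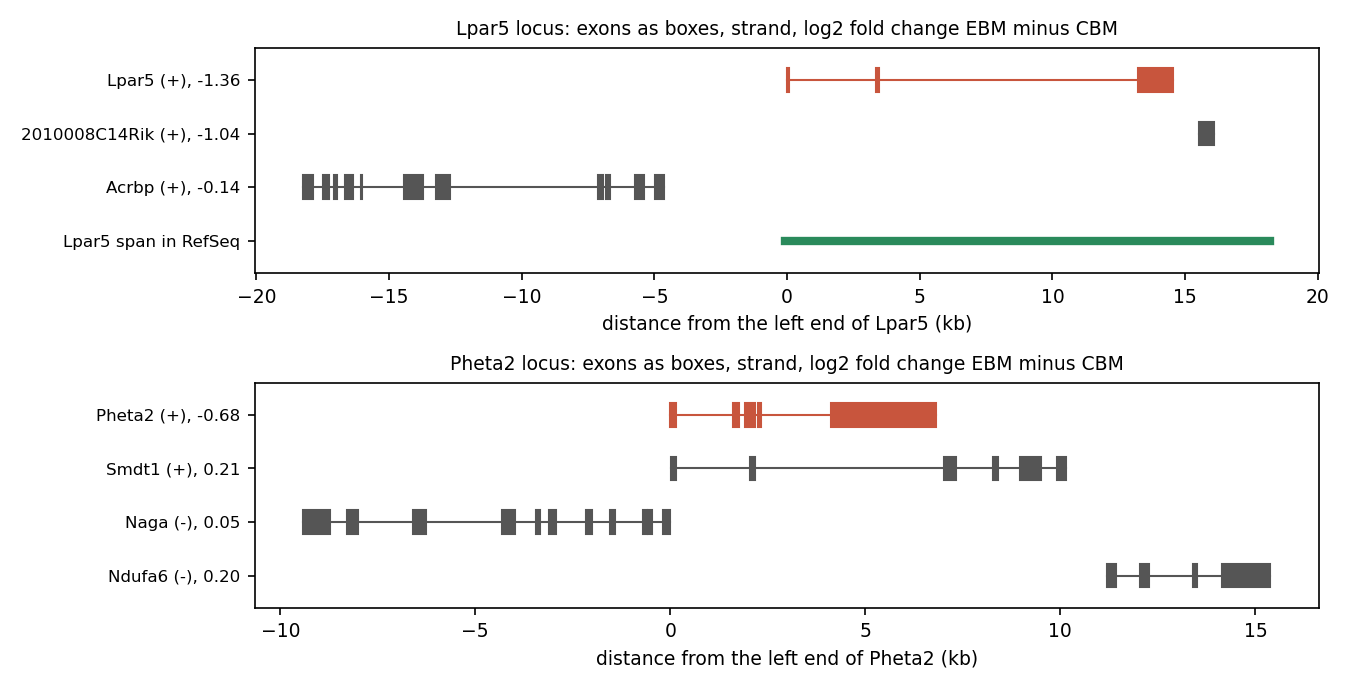
Exons (boxes) of the genes around Lpar5 (top) and Pheta2 (bottom) by distance in kilobases from the left end of the gene in the table, with strand and log2 fold change of EBM minus CBM beside each name, and the RefSeq span of Lpar5 in green. 2010008C14Rik (−1.04) lies inside the green span past the last exon of Lpar5 (−1.36), while the first exon of Smdt1 (0.21) lies within the first exon of Pheta2 (−0.68).

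Soga1 (ENSMUSG00000055485, chr2:157015799-157079254) and Pdik1l (ENSMUSG00000050890, chr4:134275002-134287895), both on the − strand, overlap no other gene of the table. Of 18 overlapping or flanking genes of the 4 loci, 17 were tested, 8 with a log2 fold change below 0 and 9 above, and the median was 0.04. None passed the adjusted threshold in edgeR's test, at an unadjusted p of 0.05 only 2010008C14Rik was lower and none higher, and DESeq2 called none. Without 2010008C14Rik the neighbours ranged from −0.33 (1500009C09Rik, beside Pheta2, with an SE of 0.998 and 0 to 21 counts) to 0.41 (Zfp593, beside Pdik1l). On either side of Soga1, Dsn1, a kinetochore gene, was at 0.04 and Samhd1, a nucleotide hydrolase, at −0.01.

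The relatives of the 4 genes were then compared. Stk35, the closest relative of Pdik1l, averaged 52.8 ± 4.99 and 60.8 ± 8.32 CPM (CBM and EBM, SD, n = 3 each), with a log2 fold change of 0.20 ± 0.14 (SE, edgeR adjusted p = 0.789). Pheta1, the other OCRL adaptor of this family, was at 6.37, 6.37 and 5.90 CPM in CBM and 6.90, 7.46 and 8.29 CPM in EBM, higher in every EBM library. Its log2 fold change was 0.28 ± 0.16 (SE, edgeR adjusted p = 0.730). Of the other LPA receptors, Lpar2 was at 9.82 ± 2.54 and 13.4 ± 3.04 CPM (CBM and EBM, SD, n = 3) with overlapping libraries, and Lpar6 at 0.910 ± 0.249 and 0.514 ± 0.302 CPM, also overlapping. Lpar6 had only 3 to 20 counts in a library, with a log2 fold change of −0.82 ± 0.54 (SE, edgeR adjusted p = 0.789). Lpar1 and Lpar4 had at most 2 counts in a library and Lpar3 had 0, so no difference could be detected for them at this depth. Soga3 and Mtcl1, the relatives of Soga1, had 0 counts in all libraries.

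Over all lists of partners and pathway genes, 84 of 104 genes were tested. 37 had a log2 fold change below 0 and 47 above, with a median of 0.03, against 0.00 over all genes. None passed the adjusted threshold in edgeR's test (smallest adjusted p 0.239), and DESeq2 called 1. At an unadjusted p of 0.05, 3 were lower and 2 higher, against 3.90% and 4.01% of all genes. The lower count was 1 without CBM replicate 2, CBM replicate 3 or EBM replicate 1, and the higher count was 0 without CBM replicate 1, CBM replicate 3 or EBM replicate 2. By CPM, 4 were lower and 5 higher in every EBM library, against the 7.65% and 7.47% of all genes given above.

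Among the 15 G proteins and effectors of LPA receptors, 10 were below 0 and 5 above. Gna11, the G protein alpha subunit that drives phospholipase C beta, was at 16.1, 17.7 and 19.35 CPM in CBM and at 9.50, 9.18 and 12.0 CPM in EBM. Its groups did not overlap, with means of 17.7 ± 1.62 and 10.2 ± 1.55 CPM (SD, n = 3 each). Its log2 fold change of −0.79 ± 0.16 (SE) did not pass the threshold (edgeR adjusted p = 0.239). DESeq2 gave an adjusted p of 0.00959, and over 17 fits in all the adjusted p was between 0.00959 and 0.917. Gnaq, which has the same role, was at −0.08 ± 0.18 (log2 fold change, SE), and Gna12 and Gna13, which act on RhoA, at −0.12 ± 0.09 and 0.07 ± 0.15. Gnai3, an inhibitory alpha subunit, was at 369 ± 21.3 and 444 ± 27.2 CPM (log2 fold change 0.27, adjusted p = 0.552), and Rhoa at 287 ± 9.71 and 345 ± 36.6 CPM (0.26, adjusted p = 0.596), both by edgeR. Per kilobase, Gnai2 and Gnai3 had the highest levels of this list, at 133.6 and 113.3 CPM per kilobase in CBM. Of 13 genes of LPA production and breakdown 9 were tested, 4 below and 5 above 0, up to 0.95 ± 0.68 (SE) for Pla1a at 2 to 14 counts, with Lpcat3 (80.9 and 81.1 CPM per kilobase in CBM and EBM) and Agpat1 (21.3 and 22.9) the highest. Enpp2, which encodes the secreted LPA-making enzyme autotaxin, and Plpp3 had 0 counts in all libraries.

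Among 12 tested genes of the OCRL, PHETA and APPL endosomal list, 3 were below 0 and 9 above. Ocrl itself was at −0.10 on the log2 scale, and highest in level were the endosomal GTPases Rab5c (105.7 and 112.3 CPM per kilobase in CBM and EBM) and Rab7 (68.4 and 75.9). Of 16 tested retromer and endosome-to-Golgi genes 6 were below 0 and 10 above, led in level by the mannose 6-phosphate receptor M6pr (93.5 and 115.6 CPM per kilobase) with the sorting nexins Snx2 (81.3 and 74.9) and Snx3 (80.1 and 90.2) next in CBM and EBM. None of either list passed an unadjusted p of 0.05 in edgeR's test. In the OCRL, PHETA and APPL list 0 genes were lower and 2, Pheta1 and Rab7, were higher in every EBM library.

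Of 17 tested Golgi and microtubule organisers, the list around Soga1, 10 were below 0 and 7 above. The Golgi golgin genes Gcc2 (45.9 ± 2.52 and 37.5 ± 4.11 CPM, SD, n = 3 each) and Trip11 (65.1 ± 3.49 and 51.6 ± 7.95 CPM) were lower in every EBM library, with log2 fold changes of −0.29 and −0.33. Both were under an unadjusted p of 0.05 and neither passed after adjustment (edgeR adjusted p = 0.608 and 0.600). Mapre1, a microtubule end-binding protein, and the kinase Mark2 had the highest levels, at 37.0 and 22.6 CPM per kilobase in CBM. Of the 17 genes, 3 were lower in every EBM library (Gcc2, Trip11 and Clip1) and 1 was higher (Mapre1), against 7.65% and 7.47% of all genes. Clip1 and Mapre1 had log2 fold changes of −0.17 ± 0.10 and 0.13 ± 0.08 (SE). Of 7 tested adiponectin signalling genes 3 were below 0 and 4 above, with Stk11 and Prkab1 highest (51.5 and 45.2 CPM per kilobase in CBM). All 6 tested PDZ-LIM and actinin genes, the list around Pdik1l, were above 0, of which Actn4 (44.8 CPM per kilobase in CBM) and Zyx (15.7) were highest, and none passed an unadjusted p of 0.05.

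**Figure D4:**
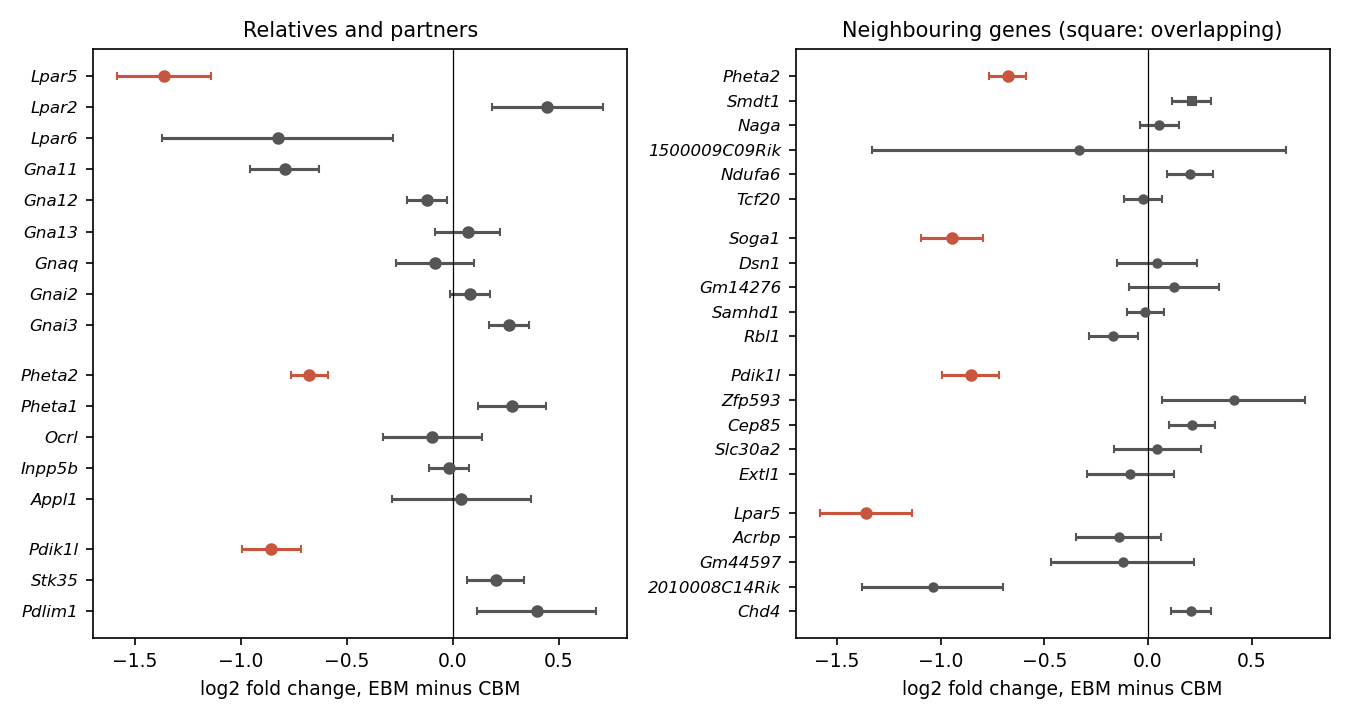
Log2 fold change of EBM minus CBM with its standard error (horizontal axes) for the 4 genes in red and, in grey, their relatives with 6 G protein alpha subunits and 4 other partners (left; not all list genes are drawn, and Soga1 had no relative with counts) and neighbouring genes (right; a square marks an overlapping gene). Apart from Gna11 (−0.79), Lpar6 (−0.82, SE 0.54, 3 to 20 counts) and 2010008C14Rik (−1.04), the grey points drawn lie nearer to 0 than the red ones do. The red genes were chosen for lower EBM values and the grey ones were not, so this contrast follows from the choice.

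The level of each of the 4 genes over the 6 libraries was set against every other tested gene by Pearson's r of log2 CPM, as a description. The 3 most alike were Fam122a, Gm38158 and Gm24119 for Pheta2 (r = 0.997, 0.995 and 0.991), and Gm19719, Gm15964 and 2310057M21Rik for Soga1 (0.991, 0.991 and 0.9901). For Pdik1l they were Amigo3, Lrfn1 and Gm22888 (0.992, 0.992 and 0.992), and for Lpar5 Gm19046, Has3 and Mex3d (0.995, 0.9902 and 0.988). Between 51 and 77 genes had an r above 0.95 with each. All 6 libraries share the split into regions for which the genes were chosen, and after the region means were subtracted only 2310057M21Rik stayed among the 3 most alike (0.998 with Soga1). Among themselves the 4 had an r of 0.866 to 0.971 over 6 libraries, and of −0.660 to 0.502 after subtraction. Soga1 and Pdik1l were at −0.627: CBM replicate 2 was the lowest CBM library for Soga1 and the highest for Pdik1l, and EBM replicate 3 was the highest EBM library for Soga1 and the lowest for Pdik1l.

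Markers of other cells were summed beside these values. The summed CPM of 8 mast cell and basophil markers was 668 to 1430 in CBM and 794 to 1290 in EBM, that of 8 erythroid markers 2260 to 5840 and 2650 to 4180, and that of 8 neutrophil markers 3.32 to 227 and 35.1 to 163. For 8 macrophage and monocyte markers it was 6.05 to 13.1 and 5.91 to 15.3, for 7 B cell markers 11.4 to 14.8 and 9.37 to 13.0, and for 8 T and NK cell markers 0.347 to 1.99 and 0.257 to 2.72. For 9 osteoblast and stromal markers it was 8.24 to 13.0 and 7.28 to 9.67, for 6 osteoclast markers 269 to 548 and 258 to 565, and for 6 endothelial markers 1.93 to 3.42 and 0.963 to 2.76. The ranges of CBM and EBM overlapped for each of these lists. Some of the sums came mostly from 1 gene. For osteoclasts it was Acp5, at 269 to 540 CPM in CBM and 258 to 565 CPM in EBM. For osteoblasts and stroma it was Runx2 (7.80 to 11.8 and 6.62 to 9.06 CPM), and for mast cells and basophils Ms4a2 (652 to 1051 and 782 to 987 CPM). Sp7, which defines osteoblasts, Emcn of vessels, Ms4a1 of B cells and Ocstamp, Dcstamp and Calcr of osteoclasts had 0 counts in all libraries. For 8 megakaryocyte and platelet markers the sums were 30.8 to 55.3 and 24.7 to 45.2 CPM, also overlapping, with Gp1bb at 0. Of 5 tested genes of that list 2 were below 0 and 3 above. Gp1ba was lower in every EBM library (12.7 to 20.4 against 7.45 to 12.2 CPM, edgeR adjusted p = 0.54), and Treml1 was higher in every EBM library (6.43 to 7.05 against 7.57 to 10.2 CPM, edgeR adjusted p = 0.73). In the other lists Cd68 of macrophages (4.02 to 6.20 against 3.47 to 3.67 CPM) and Kdr of vessels (1.64 to 1.95 against 0.707 to 1.55 CPM) were lower in every EBM library, and neither passed an unadjusted p of 0.05. Of 24 tested genes known to respond to tissue dissociation, 6 were higher at an unadjusted p of 0.05, against 4.01% of all genes, and 1, Dusp1, was lower, against 3.90%. None passed after adjustment in edgeR's test. Hspa1b, an inducible heat shock protein, was at 3.37 to 9.50 CPM in CBM and at 50.3 to 112.2 CPM in EBM. The part of other cells or of digestion in the levels of the 4 genes was not tested.

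**Figure D5:**
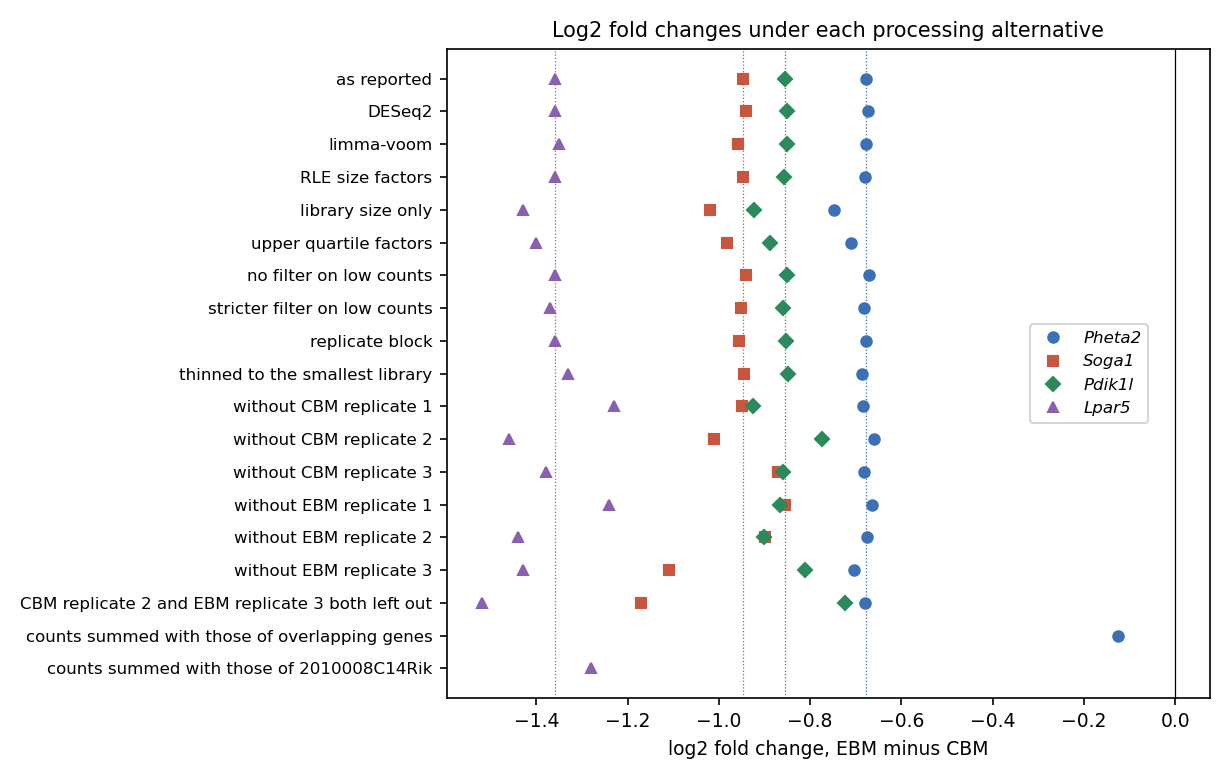
Log2 fold change of EBM minus CBM (horizontal axis) of the 4 genes under each way of processing the counts (rows), with dotted lines at the reported values. The points of Lpar5 stay between −1.52 and −1.23 and those of Pheta2 between −0.75 and −0.66. The exception is −0.13 with the overlapping genes summed, which adds all counts of Smdt1.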

How the data were processed

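RNA was measured in 3 CBM and 3 EBM libraries, grouped by the sample labels. Strand-marking libraries were made after rRNA depletion (the labels give the library type as mRNA) and read from both ends. The authors deposited raw counts per gene, with gene lengths and GRCm38 coordinates. The submitters' processing notes name HISAT2 2.0.5 and mm10. The counting tool and its use of strand are not given in the sources used here.

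Genes were kept by filterByExpr (minimum count 10), scaled by TMM and tested by edgeR 4.0.16 (R 4.3.3) with glmQLFit and glmQLFTest, with Benjamini-Hochberg adjustment at 0.05. The test used 2 groups and no block. The standard error is the absolute log2 fold change over the square root of F. Log2 CPM had a prior count of 2. Floors and counting coefficients of variation cover counting error only. Alternatives were DESeq2 1.42.0, limma-voom (limma 3.58.1), other size factors and filters, thinning to the smallest library, a replicate block, each library left out, and summed overlapping genes. The steps were tested on simulated data. The 4 genes and the lists were chosen with earlier results of these data known. Genes named were the 4, their relatives, neighbours and 3 most similar genes, and in each list those under an unadjusted p of 0.05 and the 2 with the highest length-scaled level. Other genes of a list named with values, and the markers and neighbours singled out, were chosen after their values were seen. Replicate pairs of a group differed by more than sampling noise, so none was merged.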

Additional observations from a re-analysis of the deposited data

How the results depend on the processing

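The 4 genes were chosen for a lower CPM in every EBM library, so leaving out a library could not turn their direction. All 4 were lower in EBM in every alternative run, which is a description and not a test. Leaving out each library in turn gave log2 fold changes of −1.46 to −1.23 for Lpar5, −1.11 to −0.86 for Soga1, −0.93 to −0.77 for Pdik1l and −0.70 to −0.66 for Pheta2. Pheta2 was at −0.75 with library sizes only and −0.71 with upper quartile factors. The sum of Pheta2 with its overlapping genes was at −0.13, but it holds all counts of Smdt1 and is not a value of Pheta2. Without CBM replicate 2 and EBM replicate 3, an alternative chosen after seeing the data, Soga1 was at −1.17 and Pdik1l at −0.72. The count of genes called lower was 0 as reported, 45 with DESeq2, 2 with no filter on low counts and 5 without those 2 libraries. Among partner genes DESeq2 called 1, Gna11. At an unadjusted p of 0.05 the lower genes were 521 as reported, 884 with library sizes only, 313 without CBM replicate 3 and 323 without EBM replicate 1. Whether libraries of the same number share a mouse is not stated, and the deviations of same-numbered libraries had correlations of 0.676, −0.204 and 0.203, not all above 0.1, so the number was not used as a pair. With the number as a replicate block the log2 fold changes were −1.36 for Lpar5, −0.95 for Soga1, −0.85 for Pdik1l and −0.68 for Pheta2, and 0 genes were called lower. The cause of these shifts was not tested. Counts were low for Lpar5 (41 to 146 counts, SE 0.22) and 2010008C14Rik (12 to 57 counts, SE 0.34). These standard errors also hold the spread between libraries, and the share of counting in them was not tested.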
